A study of Mus musculus with 3 samples.

Results

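Broad Cbx2 domains were taken as every row of the deposited peak table with a length (end minus start plus 1) of 5200 bp or more. This rule selected 288 of the 2217 peaks, or 12.99%, on 20 chromosomes, and the other 1929 peaks were shorter. The data are chromatin immunoprecipitation (ChIP) sequencing libraries of C3H10T1/2 cells, a mesenchymal progenitor line derived from C3H mouse embryos. By their titles, 1 Cbx2 library is of H3.3WT cells (WT) and 1 is of H3.3K36M cells (K36M). The WT cells carry a FLAG-HA-tagged transgene of normal histone H3.3, and the K36M cells express H3.3 with methionine in place of lysine 36. The genotype label of the K36M library also reads wild-type H3.3, so its group rests on the title and the design text. Both libraries are of cells that carry a tagged H3.3 transgene, and no library of cells without one was used here. An input DNA library of the WT cells belongs to the series, but its reads were not analysed here. The question named by the design text is how Cbx2 lies across the genome with either histone.

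Cbx2 is a chromodomain protein of canonical Polycomb repressive complex 1, which binds histone H3 trimethylated at lysine 27 and compacts chromatin. Polycomb is best known for keeping developmental regulators such as the Hox genes silent, and over such genes its marks form wide domains rather than narrow peaks. H3.3K36M is an oncohistone found in chondroblastoma that blocks H3 lysine 36 methyltransferases.

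Signal in a peak is given as reads per 1000000 of the library (RPM), from libraries of 29278813 reads (WT) and 36243012 reads (K36M). Levels of domains of different length are compared as RPM per kb. Each group has 1 library, so no difference below has a replicate check and no p-value is given. A ratio of K36M to WT for a domain or locus carries a 95% exact (Clopper-Pearson) interval, which covers counting error only. Coordinates are mm9, as the table gives them. The table names no genes, and the RefSeq table used here is of GRCm38, not mm9. Gene names below therefore come from general knowledge of where these genes lie in mm9, are given at 42 of the 288 domains (20 loci), and were not checked against an annotation. The other 246 domains are given by position or as counts and ranges.

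The 250 bases before the annotated start of 5 of these genes were copied from RefSeq (GRCm38.p6), with each CG dinucleotide (the letters CG, which read the same on both strands) in capitals. They are shown because the genes lie at or beside domains across the range of K36M to WT ratios, from Nkx2-4 (0.146), Hoxa13 (0.187 and 0.290 at a pair of domains) and Igf2bp3 (0.300) through Actg1 (0.695) to Malat1 (1.67).
Igf2bp3: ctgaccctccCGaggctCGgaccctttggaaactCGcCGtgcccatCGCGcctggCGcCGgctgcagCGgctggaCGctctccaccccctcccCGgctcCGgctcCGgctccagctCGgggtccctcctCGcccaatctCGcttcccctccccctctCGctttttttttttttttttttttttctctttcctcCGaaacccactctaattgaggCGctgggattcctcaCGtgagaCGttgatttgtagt
Nkx2-4: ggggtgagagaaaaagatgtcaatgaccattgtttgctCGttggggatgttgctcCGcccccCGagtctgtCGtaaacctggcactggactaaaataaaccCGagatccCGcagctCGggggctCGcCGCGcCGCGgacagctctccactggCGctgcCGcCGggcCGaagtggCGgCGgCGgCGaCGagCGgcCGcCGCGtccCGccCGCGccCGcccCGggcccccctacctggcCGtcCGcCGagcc
Hoxa13: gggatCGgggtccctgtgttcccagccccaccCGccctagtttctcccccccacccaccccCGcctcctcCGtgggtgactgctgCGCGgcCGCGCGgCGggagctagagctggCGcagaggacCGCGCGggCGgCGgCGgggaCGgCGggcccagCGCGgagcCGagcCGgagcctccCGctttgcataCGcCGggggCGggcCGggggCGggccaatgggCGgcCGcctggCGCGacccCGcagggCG
Malat1: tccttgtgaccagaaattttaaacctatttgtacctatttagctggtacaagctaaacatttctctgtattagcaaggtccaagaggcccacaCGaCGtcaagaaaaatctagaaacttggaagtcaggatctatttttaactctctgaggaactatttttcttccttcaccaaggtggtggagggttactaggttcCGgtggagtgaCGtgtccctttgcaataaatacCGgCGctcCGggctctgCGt
Actg1: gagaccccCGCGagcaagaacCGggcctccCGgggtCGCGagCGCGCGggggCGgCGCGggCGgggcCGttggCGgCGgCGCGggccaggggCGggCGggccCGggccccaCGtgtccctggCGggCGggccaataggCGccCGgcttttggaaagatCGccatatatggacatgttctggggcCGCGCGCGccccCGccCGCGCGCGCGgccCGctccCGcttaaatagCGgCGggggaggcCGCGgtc
All 5 genes are on the minus strand. Among the 32851 RefSeq promoter entries the median was 6 CG in this window. Nkx2-4 had 33 and Hoxa13 had 35, counts that 4.03% and 2.97% of entries reach. Igf2bp3 had 21, reached by 16.3% of entries. Malat1 had 8, reached by 43.0% of entries, and Actg1 had 43, reached by 0.712%. The CG count of the window thus did not order these loci by their Cbx2 change, since Actg1 had the most and Malat1 the fewest. These are descriptions of 5 chosen windows, not a test, and no sequence of the domains themselves was read because no mm9 genome was at hand. The mature product of Mir21a, at a domain with a ratio of 1.14, is shown with its seed (bases 2 to 8) in capitals.
mmu-miR-21a-5p: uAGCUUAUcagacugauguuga

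The broad domains covered 2.435 Mb, 43.3% of the length of all peaks. Their lengths ran from 5200 to 56800 bp with a median of 7000 bp and quartiles of 5950 and 9200 bp, and every length in the table was a multiple of 200 bp. A length of at least 8000 bp was reached by 106 domains, 10000 bp by 56 and 20 kb by 9. In the WT library they held 225831 reads, which is 47.2% of all reads in peaks (95% Wilson interval 47.1 to 47.4%) and 0.771% of the library. In the K36M library they held 99815 reads, 40.8% of reads in peaks (40.6 to 41.0%) and 0.275% of the library. The broad class thus took a smaller part of the peak reads in K36M than in WT.

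Cbx2 signal was lower in K36M at most broad domains on the RPM scale. The median WT level of a broad domain was 19.3 RPM (564.5 reads), with a range from 10.3 to 238 RPM. The median K36M level was 6.07 RPM (220 reads), with a range from 2.04 to 149.96 RPM. The log2 ratio of K36M to WT, computed on RPM plus a pseudocount of 0.1, had a median of -1.74 over the 288 domains (95% binomial interval over domains -1.81 to -1.66, quartiles -2.06 and -1.39). This corresponds to a 3.34-fold lower level. At 263 domains (91.3%) the K36M level was at least 2-fold lower, against 75.3% of all 2217 peaks. The libraries used for peak calling were not given, and peaks called on WT signal would lean toward lower K36M values. A level at least 4-fold lower was seen at 90 domains (31.2%), against 15.9% of all peaks. K36M was higher by any amount at 9 domains (3.12%), against 4.6% of all peaks, and at least 2-fold higher at 0 domains, against 0.271% of all peaks. The ratio had an interval below 1 at 279 domains and above 1 at the other 9, so that none straddled 1 at this depth. By comparison, it lay below 1 at 86.8% and above 1 at 2.75% of all peaks. These shares also depend on reads per peak, since shorter peaks had a median of only 89 WT reads and so wider intervals.

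These directions depend on how the libraries are scaled. Scaling both libraries to the same median over all peaks multiplies K36M by 2.89 and moves the median log2 ratio of all peaks by 1.43, from -1.45 to -0.022. On that scale the broad domains had a median of -0.22, and 193 were lower and 94 higher in K36M, against 48.5% of all peaks higher. Of the broad domains 10 were then at least 2-fold lower (3.47% of all peaks) and 13 at least 2-fold higher (10.6% of all peaks). With the same sum over all peaks, 232 were lower and 56 higher, against 33.7% of all peaks higher. On this scale 38 were at least 2-fold lower (8.39% of all peaks) and 11 at least 2-fold higher (7.04% of all peaks). Relative to the shorter peaks the order was kept: the median of the broad domains was 0.34 below theirs as deposited, 0.24 below with either scaling and 0.24 below with no pseudocount. With a pseudocount of 1, which acts most on peaks of few reads, it was 0.73 below. Peaks are not replicates, so this difference was not tested.

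**Figure D1:**
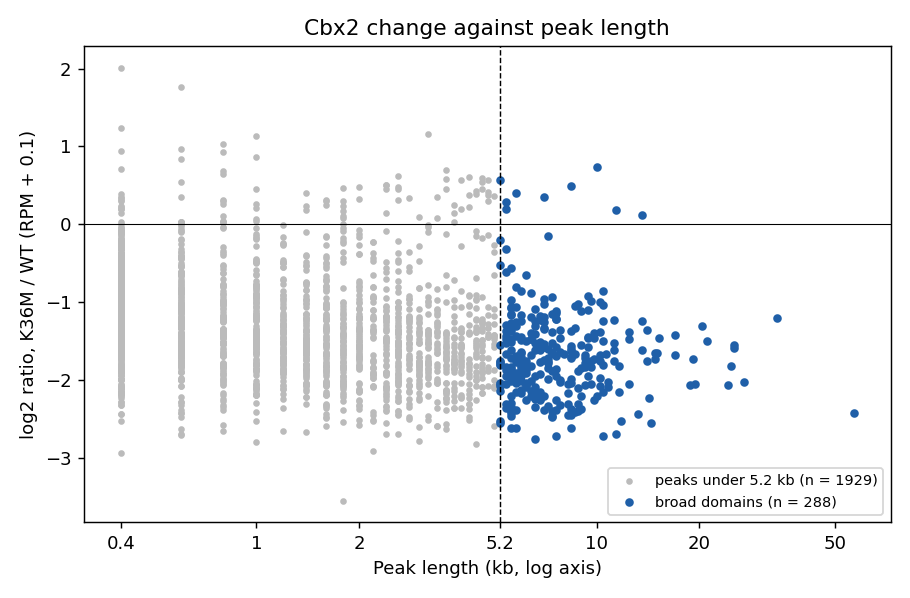
Each point is a peak, by its length in kb (log axis) and its log2 ratio of K36M to WT on RPM plus 0.1. The 288 broad domains (blue, right of the dashed line at 5.2 kb) have a median of -1.74 and range from -2.76 to 0.74, while the 1929 shorter peaks (grey) have a median of -1.40 and reach further up and down.

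Shorter peaks differed by length, whereas classes within the broad domains did not form such an order. Median log2 ratios were -1.17 over the 621 peaks of 400 to under 800 bp, -1.44 over 457 peaks up to 1600 bp, -1.51 over 501 peaks up to 3000 bp and -1.58 over 350 peaks up to 5200 bp. Without a pseudocount the median ratios of these classes were 0.389, 0.342, 0.338 and 0.327, so the shortest class stood apart and the others were close. The pseudocount pulls peaks with few reads toward 0, and the shortest class had a median of 30 reads in WT and 15 in K36M. Within the broad domains the medians were -1.76 (72 domains of 5200 to under 6000 bp), -1.81 (63 under 7000 bp), -1.65 (47 under 8000 bp), -1.74 (50 under 10000 bp), -1.70 (40 under 15000 bp) and -1.66 (16 longer ones). Their binomial intervals all overlapped, but these treat neighbouring domains of 1 pair of libraries as independent. The overlap therefore does not show that the classes are alike. Across the 288 domains, log2 length and log2 ratio were nearly unrelated (Pearson r = -0.048, Spearman rho = -0.015), given as a description since all points share the same pair of libraries. Just inside the length limit, 14 domains of 5200 bp had log2 ratios from -2.56 to 0.56 (median -1.80). Just outside it, 20 peaks of 5000 bp had log2 ratios from -2.59 to 0.37 (median -1.44).

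Breadth brought more reads but little more density, except in the longest class. Total WT RPM, which sums reads over the length, followed length among the broad domains (Pearson r 0.76 on log scales over 288 domains). WT density itself ran from 1.96 to 15.1 RPM per kb and had an r of 0.13 with length. Its median was 2.40 to 2.70 RPM per kb in the classes under 15000 bp and 3.36 in the 16 longer domains. The median WT density was 2.54 RPM per kb in broad domains and 2.33 in shorter peaks. In K36M these medians were 0.775 and 0.828 RPM per kb, so the broad domains, which were slightly denser than shorter peaks in WT, were slightly less dense in K36M. The lowest WT density in the whole table was 1.62 RPM per kb. K36M density lay below that value at 262 broad domains (91.0%) and at 1664 shorter peaks (86.26%). The libraries used for peak calling were not given. If peaks were called on WT signal, WT would have a floor that K36M lacks, so these shares are no measure of change. WT and K36M density rose together (Pearson r = 0.67 on log scales, Spearman rho = 0.57) across the broad domains. By quartile of WT density, from the least to the most dense, median log2 ratios were -1.67, -1.76, -1.76 and -1.82. WT signal is also the denominator of the ratio, so no trend is drawn from this order. The ratios of the summed reads of these quartiles were 0.323, 0.321, 0.316 and 0.401, highest in the densest quartile. That quartile, from 3.22 RPM per kb up, holds all 10 domains at histone, actin, Malat1, Neat1 and Mir21a genes. Without these 10, the ratio of summed reads over all broad domains fell from 0.357 to 0.299. The higher summed ratio therefore does not describe dense domains in general.

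**Figure D2:**
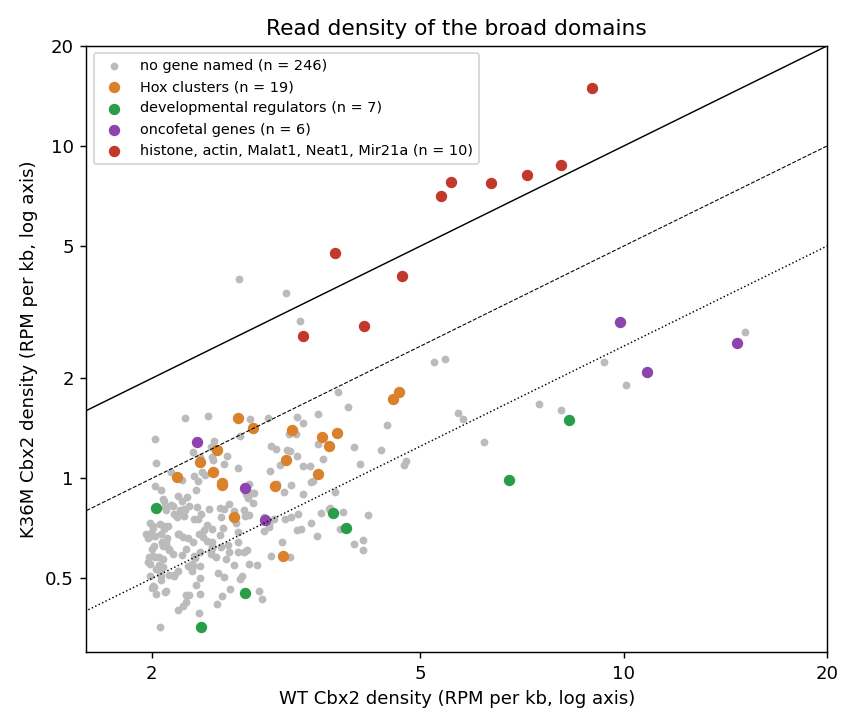
Each point is 1 of the 288 broad domains, by its WT and K36M density in RPM per kb (log axes), with solid, dashed and dotted lines at ratios of 1, 0.5 and 0.25. Domains at histone, actin, Malat1, Neat1 and Mir21a genes (red) lie near or above the solid line on this scale, while the developmental regulators (green) lie mostly below the dotted line.

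The 20 longest domains, of 14200 bp or more, lay on 12 chromosomes. All 20 were at least 2-fold lower in K36M on the RPM scale, against 91.3% of all broad domains and 75.3% of all peaks. With most broad domains past this limit, the count does not set the longest apart. Under same-median scaling, 5 of the 20 were higher instead (48.5% of all peaks were), and 1 with the same sum (33.7% of all peaks). Their ratios ran from 0.168 to 0.433, with a median log2 ratio of -1.70, close to that of all broad domains. Genes were named at 7 of them, of which 4 belong to Hox clusters. The longest, chr12:73962400-74019199, stood far ahead of the others with 56800 bp. It had 6956 WT and 1594 K36M reads, which is 4.18 and 0.774 RPM per kb, a ratio of 0.185 (0.175 to 0.196).

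The second longest was a 33800 bp domain in the HoxC cluster, chr15:102774000-102807799, with 109 (WT) and 47.3 RPM (K36M). Its ratio of 0.433 (0.408 to 0.459) was the highest of the 20. The third was chr10:112500000-112526999 (27000 bp), with 80.5 RPM and 19.8 RPM and a ratio of 0.245 (0.225 to 0.267). A pair of 25200 bp domains followed. The HoxC domain chr15:102726200-102751399 had 92.4 and 31.5 RPM, and chr16:67175800-67200999 had 51.9 and 17.2 RPM. Their WT densities of 3.66 and 2.06 RPM per kb show that domains of equal length could differ by well over the counting error in density, while their ratios were nearly the same, 0.341 (0.318 to 0.366) and 0.330 (0.300 to 0.363).

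Among the others, the lowest ratio was at the 14400 bp domain chr10:18294400-18308799, with 1053 WT and 219 K36M reads, a ratio of 0.168 (0.145 to 0.195). The 20400 bp domain chr2:61655200-61675599 lies beside Tbr1, a T-box transcription factor of the developing cortex. It had 41.4 (WT) and 16.6 RPM (K36M), ratio 0.402 (0.364 to 0.444), the second highest of the 20. The 14200 bp domain chr1:14290200-14304399 lies at Eya1, a transcriptional coactivator in ear and kidney development. It had 52.8 and 11.1 RPM, a ratio of 0.211 (0.189 to 0.236).

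**Figure D3:**
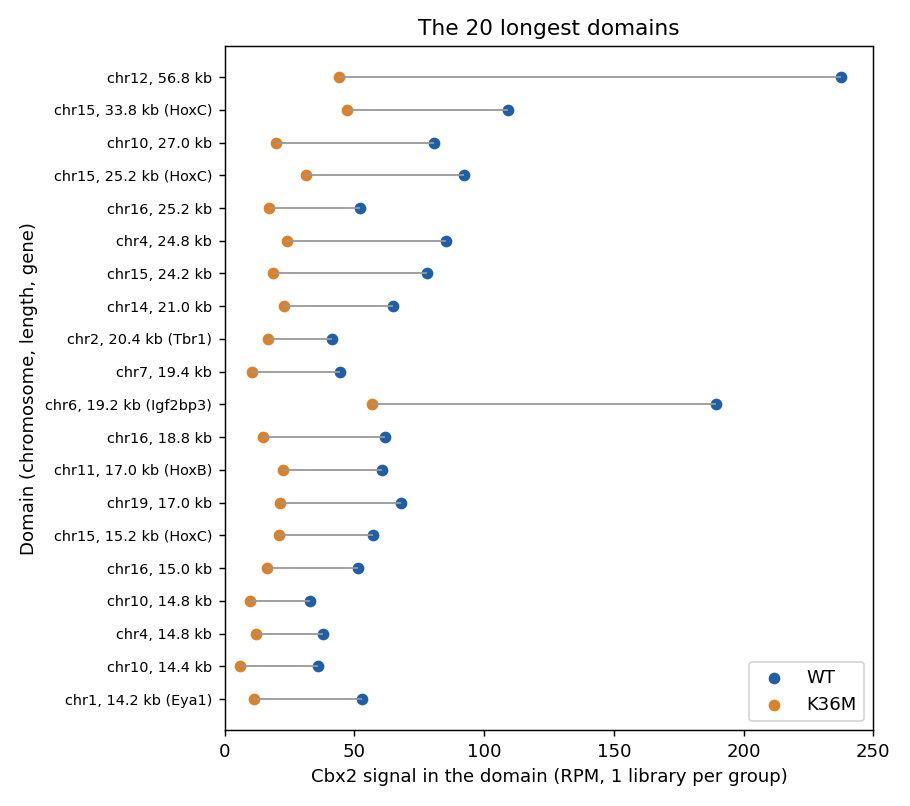
The 20 longest domains from longest (top) to shortest, named by chromosome, length and, where known, gene, with Cbx2 signal in RPM in the WT library (blue) and the K36M library (orange). K36M lies to the left of WT in every row, and the chr12 domain (238 to 44.0 RPM) and the Igf2bp3 domain (189 to 56.8 RPM) have the widest gaps.

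Hox genes encode homeodomain transcription factors that set position along the body axis and lie in 4 clusters, which are classic Polycomb targets. Parts of all 4 clusters were among the broad domains, which made 19 domains in all. Of these, 17 were at least 2-fold lower in K36M and 0 were higher on the RPM scale, against 75.3 and 4.6% of all peaks. Among all broad domains the shares were 91.3 and 3.12%, so these counts do not set the Hox domains apart. The ratios of the Hox domains ran from 0.187 to 0.568. Their median log2 ratio was -1.39, above the -1.74 of all broad domains. Under same-median scaling 14 of the 19 were higher in K36M, where 48.5% of all peaks were. With the same sum 7 of the 19 were higher, where 33.7% of all peaks were.

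The HoxC cluster held 8 domains between 102726200 and 102891199 on chromosome 15, together 119 kb of a 165 kb span. They had 11477 WT and 5562 K36M reads, ratio 0.392 (0.379 to 0.404), and single domains ranged from 0.341 to 0.487. The HoxB cluster on chromosome 11 held 6 domains with 61.8 kb and a ratio of 0.359 (0.343 to 0.375). Within HoxB the domain chr11:96133400-96144599 had the lowest ratio, 0.294 (0.262 to 0.328), and the 5800 bp domain chr11:96169000-96174799 the highest, 0.475 (0.403 to 0.560). The HoxD cluster on chromosome 2 held 3 domains with a ratio of 0.506 (0.469 to 0.544), the highest of the 4 clusters. At the Hoxa13 end of the HoxA cluster, chr6:52203600-52209399 had a ratio of 0.187 (0.153 to 0.228) and chr6:52212400-52218399 a ratio of 0.290 (0.242 to 0.347). Their joint ratio of 0.235 (0.206 to 0.268) was the lowest of the 4. The intervals of the pooled HoxA, HoxB, HoxC and HoxD ratios did not overlap, with HoxB and HoxC closest, but they cover counting error only. Single domains of HoxB and of HoxC spread well beyond these intervals, and domains of HoxB, HoxC and HoxD overlapped in ratio. HoxA had broad domains only at its Hoxa13 end. The intervals therefore do not rank the 4 clusters.

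The lowest ratios of all broad domains were found away from the Hox clusters. A group of 7 domains lay at 6 other developmental regulators: Eya1 and Tbr1 above, the homeobox genes Barx2, Lhx4 and Nkx2-4, and the zinc finger gene Zic2. All 7 were at least 2-fold lower on the RPM scale, against 91.3% of all broad domains and 75.3% of all peaks. Their ratios ran from 0.146 to 0.402, with a median log2 ratio of -2.46. Under same-median scaling the Tbr1 domain was higher, and the other 6 stayed lower. These loci were picked with earlier results in view, so neither the count nor the median is evidence about such genes in general.

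The lowest ratio of the 288 was next to Nkx2-4, at chr2:146912000-146918599, with 44.6 (WT) and 6.51 RPM (K36M), ratio 0.146 (0.127 to 0.168). Next came chr2:79289000-79296599 (914 and 168 reads) and chr1:55947600-55957999 (887 and 164 reads), neither with a gene named. The fourth was the 11400 bp domain chr9:31716600-31727999 at Barx2, with 26.9 and 4.08 RPM, a ratio of 0.152 (0.126 to 0.181). The fifth was chr6:30909400-30915199, with 697 and 137 reads and a ratio of 0.159 (0.131 to 0.191). The intervals of these 5 overlapped, so their order was not resolved at this depth. Lhx4, a LIM-homeobox gene of pituitary and motor neuron development, had 51.3 and 9.38 RPM at chr1:157579200-157592399, a ratio of 0.183 (0.162 to 0.206). At Zic2, a gene of forebrain patterning, a pair of domains had ratios of 0.164 (0.128 to 0.207) and 0.180 (0.161 to 0.201). The first held 14.3 RPM in WT (2.75 RPM per kb) and the second, chr14:122884200-122891599, 61.4 RPM (8.30 RPM per kb). This difference in density came with ratios that were not told apart.

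The 5 densest broad domains in WT had ratios from 0.174 to 0.300, 4 of them below the median ratio of 0.297 and Igf2bp3 beside it. All 5 were lower under same-median scaling as well. Dense domains were not lower throughout, since those at Malat1 and Neat1, also among the 10 densest, were higher in K36M. The first was chr6:51128600-51136799, with no gene named, at 15.1 RPM per kb in WT and 2.76 in K36M. The second was chr4:3854600-3866399 at Plag1, a zinc finger transcription factor of fetal growth, at 14.7 and 2.55 RPM per kb, a ratio of 0.174 (0.163 to 0.185). A nearby Plag1 domain, chr4:3835600-3840999, had only 2.95 RPM per kb in WT and a ratio of 0.255 (0.210 to 0.307). The third was chr11:95865800-95874799 at Igf2bp1, which encodes an oncofetal RNA-binding protein, at 10.8 and 2.09 RPM per kb, a ratio of 0.193 (0.177 to 0.210). The fourth was chr2:94032800-94039799 at 10.1 and 1.92 RPM per kb. The fifth was the 19200 bp domain of the paralogue Igf2bp3, chr6:49159800-49178999, at 9.87 and 2.96 RPM per kb, a ratio of 0.300 (0.285 to 0.316). The intervals of the paralogues' ratios did not overlap, and Igf2bp1 was only slightly denser in WT.

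Lin28b, which encodes another oncofetal RNA-binding protein and blocks let-7 maturation, had 2 domains of moderate density, named after their values were seen. The domain chr10:45128800-45135799 had a ratio of 0.339 (0.290 to 0.396). The domain chr10:45185000-45195399 had a ratio of 0.550 (0.489 to 0.618) and was 1 of the 25 broad domains that were not at least 2-fold lower. It was higher under both other scalings. At the other end of the density range, the 5 least dense domains had 1.96 to 1.99 RPM per kb in WT and ratios from 0.283 to 0.370.

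The 9 domains that were higher in K36M formed a contrasting set. They lay on 5 chromosomes, were 5200 to 13600 bp long, and had WT densities from 2.69 to 8.98 RPM per kb with a median of 5.55. They held 5.85% of the WT reads in broad domains and 21.2% of the K36M reads. Of the 9, 7 lay at Malat1, Neat1, Mir21a or the Hist1 histone genes, which are loci of abundant RNAs in many cell types. Genes were named with earlier results in view, and 246 broad domains have no gene named. The share of such loci among the other domains is therefore not known, and this count shows no enrichment.

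Malat1 and Neat1 are neighbouring genes of abundant nuclear long noncoding RNAs. The Malat1 domain, chr19:5793800-5803799, had the highest ratio, 1.67 (1.59 to 1.75), and the highest K36M density, 15.0 RPM per kb against 8.98 in WT. The Neat1 domain, chr19:5836800-5850399, went from 8.08 to 8.74 RPM per kb, a ratio of 1.08 (1.03 to 1.13). The domain at Mir21a, chr11:86389800-86401199, went from 7.20 to 8.21 RPM per kb, a ratio of 1.14 (1.08 to 1.20). Its microRNA is the one printed above.

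Replication-dependent histone genes supply new histones in S phase. They had 5 broad domains on chromosome 13, and the ratio of all 5 together was 1.25 (1.21 to 1.30). The highest was chr13:23661400-23669799, with 46.6 (WT) and 65.5 RPM (K36M), ratio 1.41 (1.31 to 1.503). The domains chr13:22131000-22136799, chr13:23622200-23629199 and chr13:21870000-21875399 had ratios of 1.32, 1.28 and 1.22. The last, chr13:23852000-23857199, was lower on the RPM scale at 0.869 (0.784 to 0.964) and higher with both other scalings.

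The actin genes Actb and Actg1, which encode cytoskeletal proteins made in nearly all cells, were named after their values were seen. Actb had 18.1 and 14.5 RPM at chr5:143663200-143668599, a ratio of 0.803 (0.711 to 0.908). Actg1 had 21.5 and 14.9 RPM at chr11:120204800-120209999, a ratio of 0.695 (0.618 to 0.781). Both were lower on the RPM scale and higher with both other scalings. The remaining 2 higher domains have no gene named, chr17:36053200-36058399 (14.003 and 20.7 RPM, ratio 1.48, 1.31 to 1.68) and chr2:125860000-125865399 (17.1 and 19.5 RPM, ratio 1.14, 1.02 to 1.28). Whether the reads at any of these loci depend on Cbx2 was not tested, since the input library was not analysed here.

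Broad domains lay closer to other peaks than shorter peaks did. The median distance from a broad domain to the nearest other peak was 9.5 kb, against 52.4 kb for shorter peaks. A peak within 10 kb was found at 149 broad domains (51.7%) and at 518 shorter peaks (26.9%). The peak caller is not given in the sources used here, and a wide enriched region split into several peaks would count as neighbours. Another broad domain lay within 50 kb of 122 domains, and these made 50 groups, 39 of 2 domains and 11 of 3 or more.

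Ratios varied within these groups to different degrees. The highest ratio of a group divided by its lowest had a median of 1.22 over the 50 groups. It was under 1.2 in 23 groups and over 1.5 in 12, with a maximum of 2.22 for a pair on chromosome 19 (chr19:28080000-28086999 at 0.510 and its neighbour at 0.229), singled out after its values were seen. The 11 larger groups held 44 domains. The largest without a gene named had 7 domains on chromosome 16 between 37108600 and 37262399, with 5934 WT and 2159 K36M reads and a ratio of 0.294 (0.280 to 0.309). Within it, ratios ran from 0.238 (0.216 to 0.263) to 0.433 (0.371 to 0.505). A group of 3 on chromosome 1 from 55947600 to 56059199 had the lowest joint ratio of the larger groups, 0.173 (0.156 to 0.193). A group of 3 on chromosome 2 from 94018800 to 94073599 had dense domains, with 5110 WT and 1351 K36M reads in 22 kb and a ratio of 0.214 (0.201 to 0.227). The group of 4 on chromosome 4 from 116548200 to 116621999 had a ratio of 0.277 (0.260 to 0.294).

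**Figure D4:**
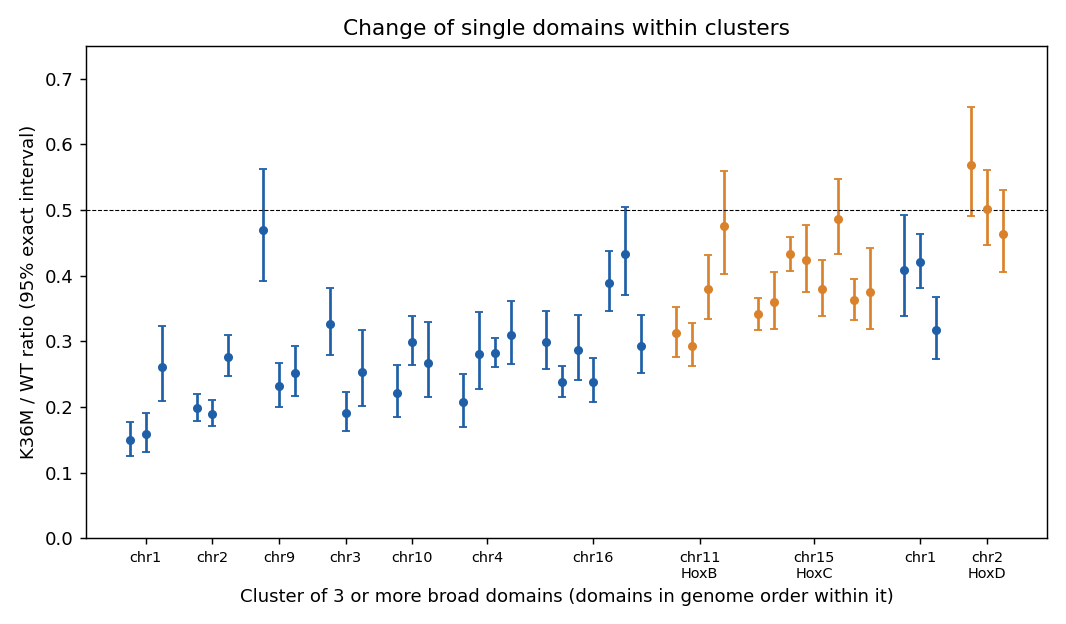
K36M to WT ratios with 95% exact intervals for each of the 44 domains in the 11 groups of 3 or more broad domains at most 50 kb apart, in genome order within a group and with groups sorted by median ratio. Domains of the HoxB, HoxC and HoxD clusters (orange) lie between 0.294 and 0.568, above most domains of the other groups, and the dashed line marks a ratio of 0.5.

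Shorter peaks flanking a broad domain were not selected by the length rule. At 105 domains at least 1 shorter peak lay within 10 kb, and the reads of these flanking peaks were summed per domain. Their median ratio was 0.326, and that of the 105 domains was 0.311. The flank had the higher ratio at 55 of the 105, and the difference in log2 ratio (flank minus domain) had a median of 0.0047, quartiles of -0.24 and 0.33 and a range from -1.62 to 1.57. Flanks thus showed no shift in 1 direction, while single pairs differed widely. At the 4 higher domains with such a flank, all at histone genes, the flank was above 1 in each. At the 101 lower domains with a flank, it was above 1 at 1, the Hist1 domain with a ratio of 0.869.

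Broad domains were found on every chromosome in the table, from 3 on chromosome 7 to 29 on chromosome 2. Their share of a chromosome's peaks ran from 5.75% on chromosome 9 (5 of 87) to 21.95% on chromosome 6 (18 of 82), against 12.99% overall. Chromosome 15 had the most length in broad domains, 257.6 kb in 24 domains, of which the HoxC cluster made 119 kb. Median log2 ratios per chromosome lay between -2.06 on chromosome 1 and -1.22 on chromosome 17, with chromosome 13 apart at -0.38. On chromosome 13, 3 of 10 domains were at least 2-fold lower and 4 were higher, and 5 of the 10 were the histone domains described above. All domains on chromosomes 1, 4, 6, 7, 8, 9, 12, 15, 16 and X were at least 2-fold lower on the RPM scale. Over all chromosomes, 91.3% of broad domains and 75.3% of all peaks passed that limit.

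**Figure D5:**
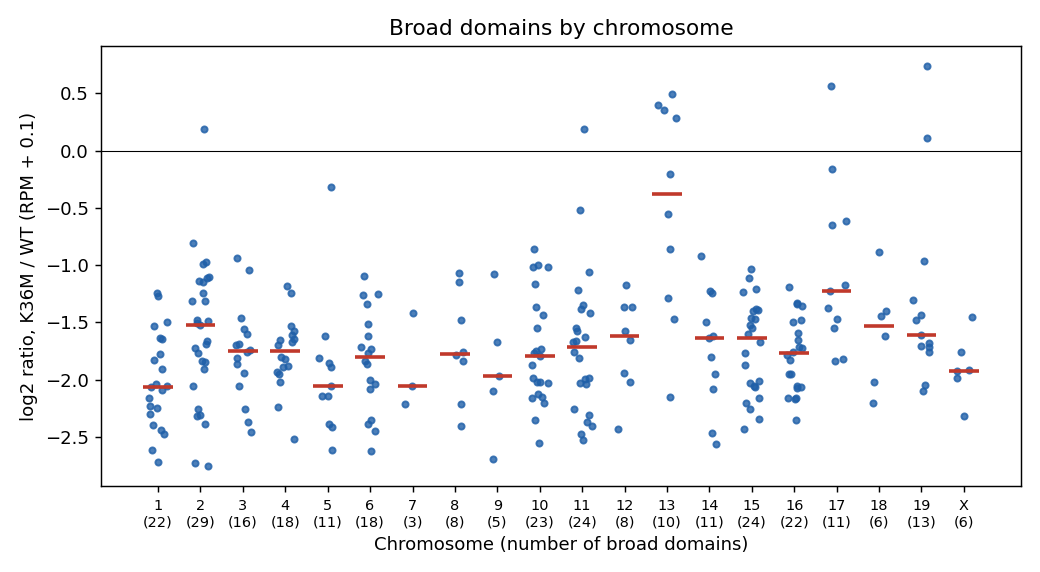
Each point is a broad domain, by chromosome and log2 ratio of K36M to WT on RPM plus 0.1, with the median per chromosome as a red bar and the number of domains in brackets. Chromosome 13 has the highest median (-0.38) and 4 of the 9 points above 0, and points are spread sideways only to keep them apart.

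The strongest domains were partly different in the 2 libraries. Of the 10 broad domains with the most RPM in WT and the 10 with the most in K36M, 5 were the same. Of the WT top 10, 2 were higher in K36M, against 7 of the K36M top 10. Ranking on K36M signal favours high ratios and ranking on WT signal favours low ones. No conclusion is drawn from these counts. The top 10 held 17.0% of WT reads in broad domains and 25.1% of K36M reads.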

How the data were processed

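Cbx2 ChIP libraries from C3H10T1/2 cells, 1 WT and 1 K36M, were compared over the peaks of 1 deposited table. Reads were aligned with Bowtie 1.0.0 to mm9, per the submitters' processing notes. The peak caller, the libraries used for calling, duplicate removal and use of input were not given in the sources used here. Although its 2 value columns carry the heading RPKM, the deposited numbers are reads per 1000000 library reads (RPM): 100% were whole multiples of a single step per column, within 1e-06 of a read, whatever the peak length. That step gave the library sizes and the reads per peak. The WT column was read as the Cbx2 ChIP, since the table is named for Cbx2. The labels' protocol and descriptions name different suppliers of the Cbx2 antibody.

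Log2 ratios used RPM plus 0.1, and ratios of single domains or loci no pseudocount. Calculations used Python 3.11.15, pandas 2.3.3, numpy 2.4.6 and scipy 1.17.1, and were checked on simulated reads. Domains named singly were the 20 longest, the 5 lowest and 5 highest ratios, the 5 densest and 5 least dense in WT, and groups of 3 or more at most 50 kb apart; others were named after their values were seen. Members, loci and gene groups were chosen with earlier results of these data known. PCR reads are not independent molecules, so all intervals cover counting error only.

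The 95% intervals of medians treat domains as independent, which neighbouring domains are not. Alternatives were other pseudocounts, scalings, length limits, fold limits, a filter on the mean, merging of peaks up to 1000 bp apart and leaving out chromosome 13.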

Additional observations from a re-analysis of the deposited data

How the results depend on the processing

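No paired analysis was possible because neither WT nor K36M has a second ChIP library, and no replicate could be left out. Scaling moved most results. With the same median, the broad domains had a median log2 ratio of -0.22, 10 were lower by 2-fold or more, 13 higher by 2-fold or more and 94 higher by any amount, against 3.47, 10.6 and 48.5% of all peaks. With the same sum these were -0.47, 38, 11 and 56, against 8.39, 7.04 and 33.7% of all peaks. A pseudocount of 1 gave a median of -1.58. Counts also follow the number of domains. At 4000 bp or more (442 domains) 24 were higher. At 8000 bp or more (106), 99 were at least 2-fold lower and 4 higher, and at 10000 bp or more (56), 52 and 3. Over all peaks, 75.3% were at least 2-fold lower and 4.6% higher. Shares of peak reads at these length limits were 59.8, 26.5 and 18.3% in WT and 57.2, 23.4 and 17.0% in K36M. Without chromosome 13, 5 domains were higher, and without the Malat1, Neat1, Mir21a, actin and histone domains, a set added after seeing the data, 2 were. At a limit of 1.5-fold, 1 domain was higher. A pseudocount of 0.01 left the counts as they were. The filter on the mean removed no broad domain and merging joined none, so neither could change a value. The smallest read counts of a broad domain were 301 in WT and 74 in K36M, so depth limited single domains little.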
